A study of Mus musculus with 22 samples.

Results

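Fatty acid and sterol synthesis was followed through 10 genes: the sterol genes Srebf2, Insig1, Hmgcs1 and Sqle, and the fatty acid genes Srebf1, Acaca, Fasn, Elovl6, Scd1 and Scd2. They were chosen by name, and each was read from its probe set with a single gene symbol, taking the one with the highest mean where a gene had several. All 10 were found among the 19938 genes measured. The data are deposited log2 intensities from 22 arrays, 1 array per tissue sample, so a difference of 1 is a 2-fold change.

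The samples came from mice of the RIP1-TAG2 (RT2) genotype, a transgenic strain whose beta cells express a viral tumour antigen from the insulin promoter. Every group carried this genotype, the normal islets included, so there was no control without the transgene. The tissue labels gave 3 normal islet, 3 hyperplastic islet and 3 angiogenic islet samples, 5 islet tumours, 5 metastasis-like primary tumours (MLP) and 3 liver metastases. No source used here gives the age of the mice, any treatment or the basis on which a primary tumour was placed in the MLP class. The labels also do not say that samples of a group came from separate animals, so p-values measure only the spread between these samples. All 3 metastases carry the title prefix I and the primaries I, II or III, prefixes that no source used here explains.

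Cells make fatty acids and cholesterol from the same precursor, cytosolic acetyl-CoA. Acetyl-CoA carboxylase (Acaca) and fatty acid synthase (Fasn) build palmitate, Elovl6 lengthens it to stearate, and the stearoyl-CoA desaturases Scd1 and Scd2 place the double bond that gives palmitoleate and oleate. HMG-CoA synthase (Hmgcs1) stands near the start of the sterol branch, and squalene epoxidase (Sqle) makes the first oxygen-requiring step towards sterols. Both arms are driven by the SREBP transcription factors encoded by Srebf1 and Srebf2, which the SCAP protein escorts out of the endoplasmic reticulum unless INSIG proteins, among them the product of Insig1, retain it there when sterols are plentiful. Insig1 is itself a well known SREBP target. Palmitate and its desaturation products are of interest in beta cells because saturated fatty acids are toxic to them.

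SREBPs bind sterol regulatory elements, often next to boxes bound by NF-Y. RefSeq promoter windows (GRCm38.p6), from 250 bases before to 50 after a start site, were matched by symbol for 7 of the 10 genes, with 3 windows for Srebf1. Both strands were searched for the element TCACNCCAC, the E-box CACGTG, the NF-Y box CCAAT and the GC box GGGCGG. The 250 bases before the start site are shown for the 3 sterol genes with a window, which were all lower in islet tumours than in normal islets, and for Fasn as the fatty acid gene with the most NF-Y boxes. They are written from 5' to 3' on the strand of the gene, and capitals mark TCACNCCAC and CCAAT, or their reverse complements.
Hmgcs1, chr13:119690101-119690350, plus strand: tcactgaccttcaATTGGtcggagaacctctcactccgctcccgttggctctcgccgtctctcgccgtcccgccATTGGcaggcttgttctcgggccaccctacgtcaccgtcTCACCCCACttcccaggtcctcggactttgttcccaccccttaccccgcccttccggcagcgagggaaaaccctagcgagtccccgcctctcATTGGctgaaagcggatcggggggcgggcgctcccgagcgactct
Insig1, chr5:28071162-28071411, plus strand: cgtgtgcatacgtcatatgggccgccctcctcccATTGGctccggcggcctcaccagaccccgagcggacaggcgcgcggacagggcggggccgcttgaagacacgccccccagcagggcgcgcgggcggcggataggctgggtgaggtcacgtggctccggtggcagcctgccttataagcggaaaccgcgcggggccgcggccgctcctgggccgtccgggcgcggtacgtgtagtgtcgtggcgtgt
Srebf2, chr15:82147019-82147268, plus strand: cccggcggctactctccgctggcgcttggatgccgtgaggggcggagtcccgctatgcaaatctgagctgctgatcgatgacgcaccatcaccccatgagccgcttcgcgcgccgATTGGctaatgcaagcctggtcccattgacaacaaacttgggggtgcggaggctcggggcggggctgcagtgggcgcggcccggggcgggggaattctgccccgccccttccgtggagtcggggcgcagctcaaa
Fasn, chr11:120824548-120824797, minus strand: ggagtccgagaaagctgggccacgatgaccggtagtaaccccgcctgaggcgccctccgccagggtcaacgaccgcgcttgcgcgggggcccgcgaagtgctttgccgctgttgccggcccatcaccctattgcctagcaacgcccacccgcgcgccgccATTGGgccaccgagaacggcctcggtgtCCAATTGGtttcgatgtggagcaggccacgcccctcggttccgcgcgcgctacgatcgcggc
The Hmgcs1 window was the only one of these 9 windows to hold TCACNCCAC, as TCACCCCAC 137 bases before the start site, and 1.24% of 32851 RefSeq windows of the same length hold it. An NF-Y box lay in the windows of all 3 sterol genes, in that of Fasn and in 2 of the 3 windows of Srebf1, against 37.4% of all windows. The 2 boxes 62 and 59 bases before the Fasn start overlap, since CCAATTGG reads as a match on each strand. The E-box was found for Insig1 alone, 101 bases before its start, and in 7.15% of all windows. The windows of Acaca and Elovl6 held none of these 4 motifs. These matches describe letters in 1 window a gene or transcript start, and were not related to the levels below by any test.

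The arrays were alike in scale, with sample medians from 7.08 to 7.22, and no 2 arrays were identical (highest correlation across genes 0.9951). Levels of different genes are not compared, because each has its own probes. Centring each array on its median changed the balance of calls over all genes. The share of calls that were higher went from 51.7% to 37.9% for hyperplastic against normal islets and from 90.3% to 76.6% for angiogenic against hyperplastic islets. It went from 32.4% to 51.7% for islet tumours against angiogenic islets and from 44.7% to 33.9% for islet tumours against normal islets. Acinar markers, 8 measured genes, had group means from 11.25 to 11.91 in islets and primaries, and of 9.87 in metastases. Single samples departed from this, with 9.33 in Normal2007, 10.45 in Hyperplastic2007 and 10.25 in the MLP III-8016, against 9.57 to 10.41 in the metastases. Since these are bulk tissues, fewer cells of a type and less RNA per cell cannot be told apart in any result that follows.

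From normal islets to islet tumours all 4 sterol genes fell, Insig1 the most at 2.99-fold, and Hmgcs1 and Sqle were higher in liver metastases than in either class of primary tumour. Of the fatty acid genes, Scd1 was high in angiogenic islets and metastases and low in both classes of primary tumour, Elovl6 was high in MLP and metastases, and Fasn and Acaca had the smallest spans of the 10. Calls below are limma's moderated test at an adjusted p below 0.05, with Benjamini-Hochberg adjustment over all 19938 genes.

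**Figure D1:**
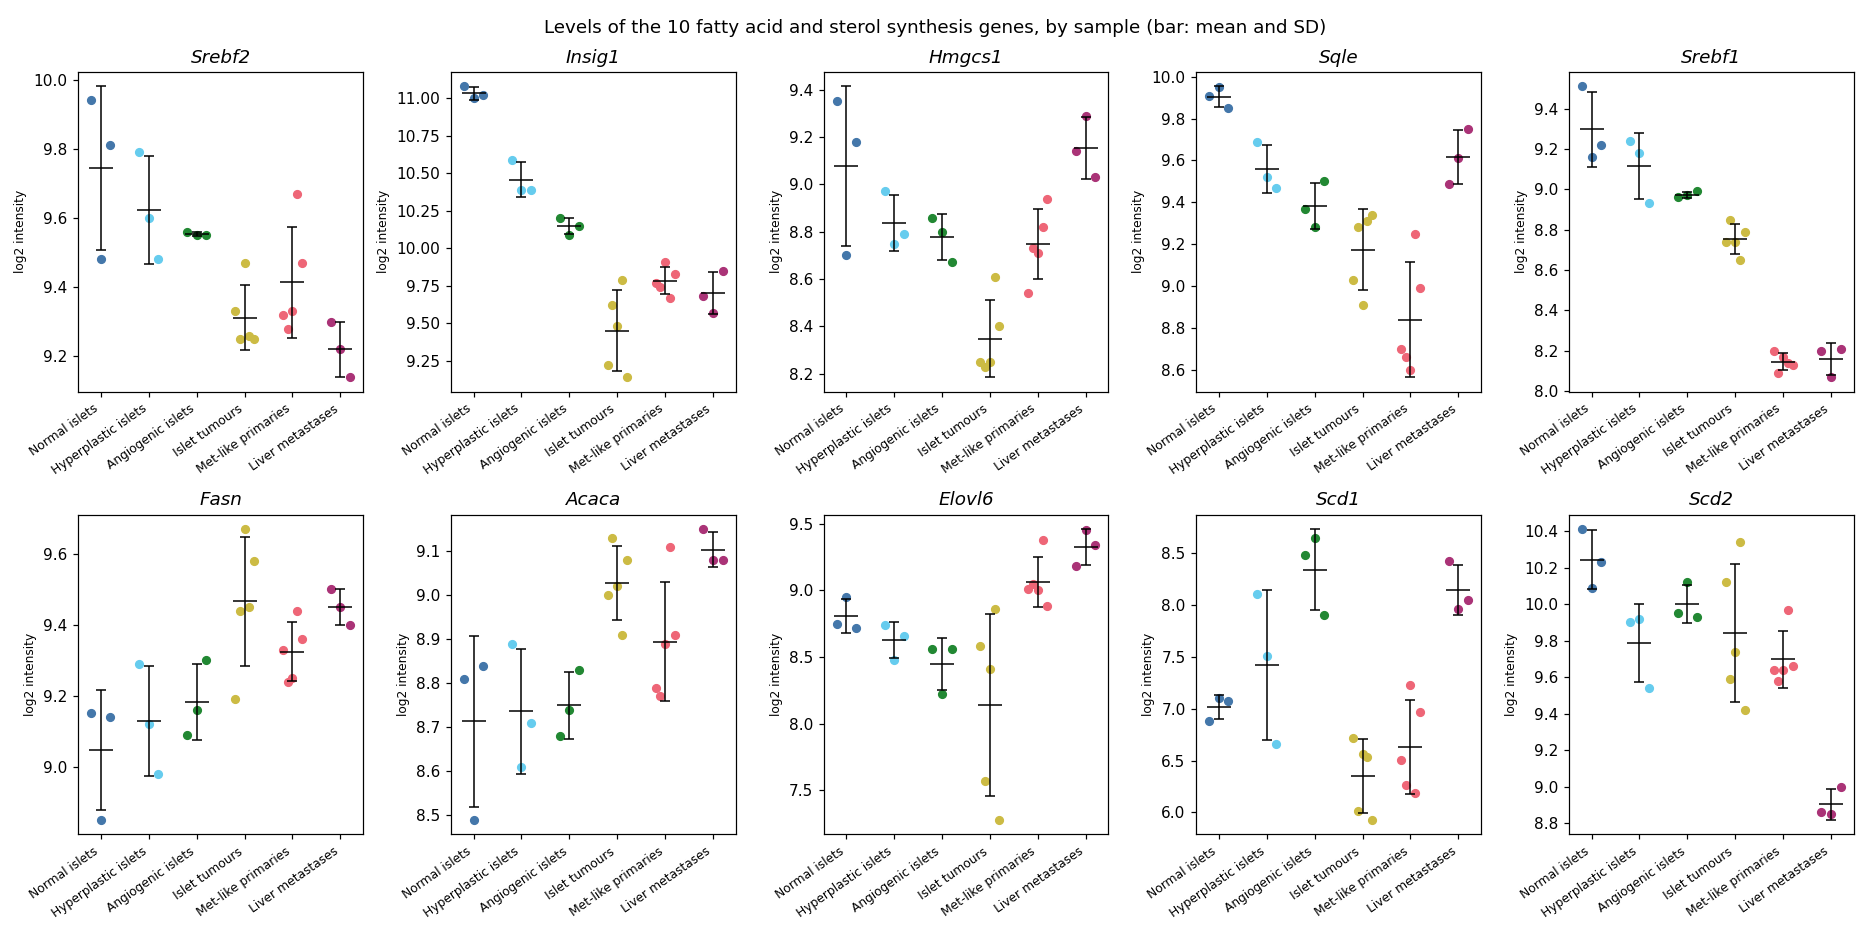
Log2 intensity (vertical axis, its own range in each panel) of each of the 10 genes in the 22 samples, grouped by tissue label. Points are samples and bars give the mean and SD of a group. Insig1 runs from 11.03 in normal islets to 9.45 in islet tumours, Srebf1 is near 8.15 in both MLP and metastases, and Scd1 is highest in angiogenic islets and metastases.

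Between hyperplastic and normal islets 1 of the 10 genes was called, Insig1, which was lower, where 4.17% of all genes were called lower and 4.46% higher. Between angiogenic and hyperplastic islets none of the 10 was called, against 2.29% of all genes higher and 0.246% lower. Scd1 and Insig1 had an unadjusted p under 0.05 there, of 0.00717 and 0.0234. Between islet tumours and angiogenic islets 3 of 10 were called lower and none higher, against 6.45% and 3.09% of all genes. From normal islets directly to islet tumours 6 of 10 were lower and 2 higher, against 16.1% and 13% of all genes, with a median difference over the 10 genes of -0.60 where the median over all genes was -0.011.

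Between MLP and islet tumours 3 of 10 were higher and 2 lower, against 12.3% and 14.2% of all genes. Between metastases and MLP 3 were higher and 1 lower, against 7.8% and 7.87%. Between metastases and islet tumours 4 were higher and 2 lower, against 17.3% and 19.3%. The median differences over the 10 genes in these 3 comparisons were -0.01, 0.17 and 0.16, beside -0.016, -0.015 and -0.033 over all genes. Several comparisons share the islet tumour, MLP or normal islet samples, so their values are not independent of each other.

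**Figure D2:**
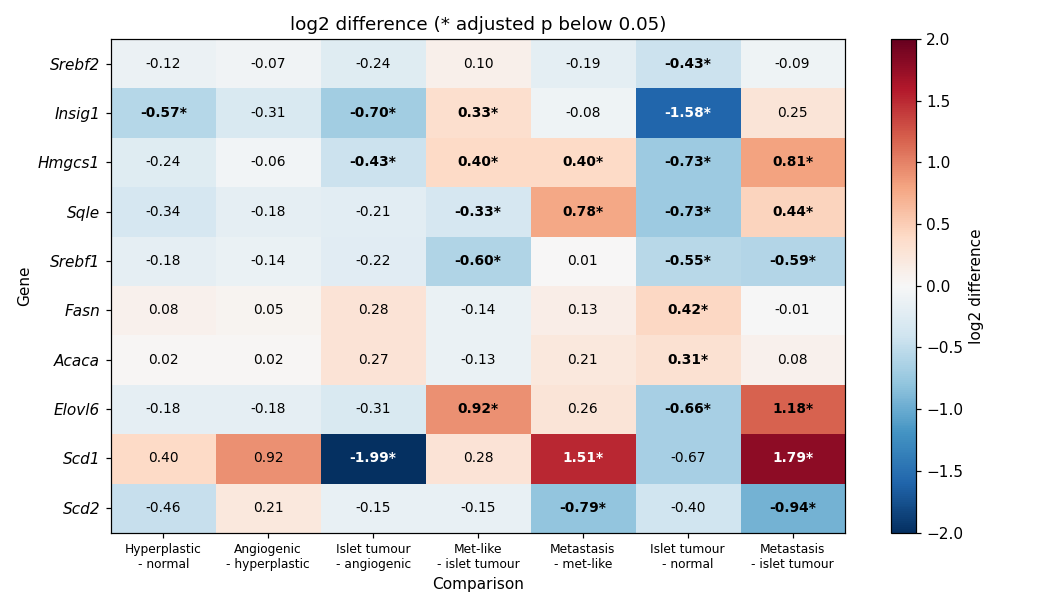
Log2 difference of each gene (rows) in each of the 7 comparisons (columns, first group minus second), with an asterisk and bold type where limma's adjusted p was below 0.05. Blue is lower and red higher in the first group: the column of islet tumours against normal islets is mostly blue, with Insig1 at -1.58, and Scd1 runs from -1.99 to 1.79.

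Insig1, the sterol-sensing retention protein, had the largest fall of the 10 from normal islets to islet tumours. It measured 11.08, 11 and 11.02 in normal islets, 10.59, 10.39 and 10.39 in hyperplastic islets, and 10.2, 10.09 and 10.15 in angiogenic islets. The tumours measured 9.22, 9.62, 9.48, 9.79 and 9.14, the MLP 9.77, 9.74, 9.91, 9.67 and 9.83, and the metastases 9.68, 9.57 and 9.85. The normal, hyperplastic and angiogenic islets did not overlap each other, and no tumour of any class reached the lowest angiogenic islet. Insig1 fell by 0.57 ± 0.13 (SE) from normal to hyperplastic islets, a 1.49-fold change (limma adjusted p = 0.00505). The further difference of -0.31 ± 0.13 to angiogenic islets was not called. It fell by 0.70 ± 0.11 from angiogenic islets to islet tumours (1.62-fold, limma adjusted p = 0.000528), and by 1.58 ± 0.11 over the whole course from normal islets (2.99-fold, limma adjusted p = 2.37e-09). Insig1 was then 0.33 ± 0.10 higher in MLP than in islet tumours (1.26-fold, limma adjusted p = 0.014), a call that was lost without the tumour III-8024 (limma adjusted p = 0.0502, range 0.00133 to 0.0502 over the samples left out). Metastases and MLP differed by -0.08, which was not called.

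Srebf2 encodes the SREBP that mainly drives sterol genes. Its values were 9.48 to 9.94 in the normal, 9.48 to 9.79 in the hyperplastic and 9.55 to 9.56 in the angiogenic samples. They ranged from 9.25 to 9.47 in islet tumours, from 9.28 to 9.67 in MLP and from 9.14 to 9.3 in metastases. It fell by 0.43 ± 0.10 from normal islets to islet tumours (1.35-fold, limma adjusted p = 0.00256), and was called in no other comparison. The group means stepped down from normal islets to metastases with MLP just above the islet tumours. In that order of means the ranges of neighbouring groups overlapped. Angiogenic islets and islet tumours, with MLP between them, did not overlap.

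Hmgcs1 dipped in the islet tumours. It measured 9.35, 8.7 and 9.18 in normal islets, 8.97, 8.75 and 8.79 in hyperplastic islets, and 8.86, 8.8 and 8.67 in angiogenic islets. It then measured 8.25, 8.23, 8.25, 8.61 and 8.4 in islet tumours, 8.54, 8.73, 8.71, 8.82 and 8.94 in MLP, and 9.14, 9.29 and 9.03 in metastases. The islet tumours lay wholly below the 3 islet groups and the metastases wholly above both classes of primary, while MLP and islet tumours overlapped through 1 tumour at 8.61. Hmgcs1 fell by 0.73 ± 0.12 from normal islets to islet tumours (1.66-fold, limma adjusted p = 9.43e-05) and by 0.43 ± 0.12 from angiogenic islets (1.34-fold, limma adjusted p = 0.0316). It was higher by 0.40 ± 0.11 in MLP than in islet tumours (1.32-fold, limma adjusted p = 0.00675), higher again by 0.40 ± 0.12 in metastases than in MLP (1.32-fold, limma adjusted p = 0.0292), and 0.81 ± 0.12 higher in metastases than in islet tumours (1.75-fold, limma adjusted p = 2.42e-05). The fall from angiogenic islets was not called when any 1 of AngiogenicI-93, Angiogenic2006 or the tumours I-9811, II-649 and II-6415 was left out (limma adjusted p 0.0617 to 0.166 in these 5). The rise from MLP to metastases was not called without any 1 of the MLP I-9812, II-648 and II-6413 or the metastases I-9820 and I-9821 (limma adjusted p 0.0539 to 0.152 in these 5).

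Sqle also dipped, with its lowest level in MLP rather than islet tumours. It measured 9.91, 9.95 and 9.85 in normal islets, 9.69, 9.52 and 9.47 in hyperplastic islets, and 9.37, 9.28 and 9.5 in angiogenic islets. It measured 9.03, 9.28, 8.91, 9.31 and 9.34 in islet tumours, 8.7, 8.66, 8.6, 9.25 and 8.99 in MLP, and 9.49, 9.61 and 9.75 in metastases. Normal islets lay above every other sample, and the metastases lay above all 10 primary tumours. Sqle fell by 0.73 ± 0.13 from normal islets to islet tumours (1.66-fold, limma adjusted p = 0.000139). It rose by 0.78 ± 0.13 from MLP to metastases (1.71-fold, limma adjusted p = 0.000193) and by 0.44 ± 0.13 from islet tumours to metastases (1.36-fold, limma adjusted p = 0.00845). The last call was lost without the metastasis I-9822 (limma adjusted p = 0.0571, range 0.00664 to 0.0571 over the samples left out). Sqle was 0.33 ± 0.11 lower in MLP than in islet tumours (1.26-fold, limma adjusted p = 0.0283). That call was lost in 6 of 10 fits with 1 sample left out, those without the tumours II-649, III-8017 or III-8024 or the MLP I-9812, II-648 or II-6413 (limma adjusted p 0.0675 to 0.0854).

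Over the 22 samples the 5 genes outside the set whose levels were most like those of Sqle were Poc1b (Pearson r = 0.911), Harbi1 (0.899), Anks4b (0.896), E2f5 (0.891) and C8g (0.889). The samples of a tissue label share their source, so these values describe a common order of groups: Anks4b, for example, had group means of 8.55 in normal islets, 6.81 in islet tumours, 6.53 in MLP and 7.43 in metastases.

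Srebf1, which encodes the SREBP that mainly drives fatty acid genes, had falling group means through the islets, in steps that were not called, and dropped in MLP. It measured 9.51, 9.16 and 9.22 in normal islets, 9.24, 9.18 and 8.93 in hyperplastic islets, and 8.96, 8.97 and 8.99 in angiogenic islets. It measured 8.74, 8.85, 8.74, 8.65 and 8.79 in islet tumours, 8.2, 8.09, 8.17, 8.14 and 8.13 in MLP, and 8.2, 8.07 and 8.21 in metastases. All 8 MLP and metastasis samples lay between 8.07 and 8.21, below the lowest islet tumour, and the islet tumours lay below every islet sample. Srebf1 fell by 0.55 ± 0.08 from normal islets to islet tumours (1.46-fold, limma adjusted p = 2.12e-05) and by 0.60 ± 0.07 from islet tumours to MLP (1.52-fold, limma adjusted p = 9.38e-07). The single steps were -0.18 from normal to hyperplastic islets, -0.14 on to angiogenic islets and -0.22 on to islet tumours. None of these steps was called (limma adjusted p = 0.256, 0.533 and 0.0887). Metastases were 0.59 ± 0.08 lower than islet tumours (1.51-fold, limma adjusted p = 6.41e-06), and metastases and MLP differed by 0.01, which was not called. The Srebf1 probe set reads the gene as a whole and does not separate its SREBP-1a and SREBP-1c transcripts.

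Fasn and Acaca, the enzymes that build palmitate, varied least, at 0.42 and 0.39 between their highest and lowest group means, against 1.99 for Scd1. A span of this size was larger than that of 49.1% of all genes for Fasn, 45.9% for Acaca and 95.4% for Scd1. Fasn spanned 8.85 to 9.15 among normal islets, 9.19 to 9.67 among islet tumours, 9.24 to 9.44 among MLP and 9.4 to 9.5 among metastases. Acaca spanned 8.49 to 8.84 among normal islets, 8.91 to 9.13 among islet tumours, 8.77 to 9.11 among MLP and 9.08 to 9.15 among metastases. For both genes every islet tumour was above every normal islet sample, the opposite direction to Srebf1. Fasn rose by 0.42 ± 0.10 (1.34-fold, limma adjusted p = 0.00262) and Acaca by 0.31 ± 0.09 (1.24-fold, limma adjusted p = 0.0118), and neither was called in any other comparison. With a block for the codes in the sample titles neither rise was called, at 0.23 for Fasn (limma adjusted p = 0.256) and 0.19 for Acaca (0.289). In that fit the I-93 islets and the tumours with prefix I were put in the same block, the only block with both. Its only islet tumour was I-9811, which had the lowest Fasn of the islet tumours, 9.19. The Acaca call was lost without Normal2006, its lowest sample (limma adjusted p = 0.13, range 0.00856 to 0.13 over the samples left out). A second Acaca probe set had means of 7.84 in normal islets and 8.01 in islet tumours. The levels most like those of Fasn over the 22 samples were those of Efr3b (Pearson r = 0.901), Cdc27 (0.858), Ep400 (0.858), Anapc1 (0.845) and Gtf2ird1 (0.844).

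Elovl6, the elongase that turns palmitate into stearate, separated the 2 classes of primary tumour. It measured 8.75, 8.95 and 8.72 in normal islets, 8.74, 8.48 and 8.66 in hyperplastic islets, and 8.56, 8.22 and 8.56 in angiogenic islets. It measured 8.58, 7.57, 8.41, 8.86 and 7.28 in islet tumours, 9.01, 9.05, 9, 9.38 and 8.88 in MLP, and 9.18, 9.45 and 9.34 in metastases. The islet tumours were widely spread (SD 0.68, n = 5), with II-649 and III-8024 far below the other three, and the highest of them stayed just below the lowest MLP, 8.86 against 8.88. Elovl6 was higher by 0.92 ± 0.21 in MLP than in islet tumours (1.89-fold, limma adjusted p = 0.00195) and by 1.18 ± 0.24 in metastases than in islet tumours (2.27-fold, limma adjusted p = 0.000551). It was 0.66 ± 0.24 lower in islet tumours than in normal islets (1.58-fold, limma adjusted p = 0.0445), with overlapping ranges. That call was lost in 5 of 8 fits with 1 sample left out, those without any 1 of the 3 normal islet samples or without the tumours II-649 or III-8024 (limma adjusted p 0.0763 to 0.155).

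Scd1, the desaturase best known from liver and fat, had the widest span. It measured 6.88, 7.1 and 7.07 in normal islets, 8.1, 7.51 and 6.66 in hyperplastic islets, and 8.48, 8.64 and 7.9 in angiogenic islets. It measured 6.72, 6.01, 6.56, 6.53 and 5.93 in islet tumours, 6.51, 6.26, 7.23, 6.19 and 6.97 in MLP, and 8.42, 7.96 and 8.05 in metastases. The hyperplastic islets spread from below the normal islets up to the angiogenic ones, and every angiogenic islet and metastasis sample was above every primary tumour. Scd1 fell by 1.99 ± 0.28 from angiogenic islets to islet tumours (3.97-fold, limma adjusted p = 0.000109). It rose by 1.51 ± 0.28 from MLP to metastases (2.86-fold, limma adjusted p = 0.000592), and metastases were 1.79 ± 0.28 above islet tumours (3.47-fold, limma adjusted p = 2.58e-05). The difference of 0.92 ± 0.31 between angiogenic and hyperplastic islets was not called (limma adjusted p = 0.146), but was without HyperplasticI-93, the highest hyperplastic sample (0.0389, range 0.0389 to 0.546 over the samples left out). The difference of -0.67 ± 0.28 between islet tumours and normal islets was not called either, although their samples did not overlap. It was called with median centring (-0.72, limma adjusted p = 0.0469) and with only the compared samples (-0.67, 0.0203).

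Scd2, the desaturase that prevails outside the liver, went the other way in metastases. It measured 10.41, 10.09 and 10.23 in normal islets, 9.9, 9.92 and 9.54 in hyperplastic islets, and 9.95, 10.12 and 9.93 in angiogenic islets. It measured 10.12, 9.59, 9.74, 10.34 and 9.42 in islet tumours, 9.64, 9.58, 9.64, 9.97 and 9.66 in MLP, and 8.86, 8.85 and 9 in metastases. The 3 metastases lay together below the 19 other samples, while among the rest groups next to each other in the order of means overlapped. Scd2 fell by 0.79 ± 0.16 from MLP to metastases (1.73-fold, limma adjusted p = 0.00135), and metastases were 0.94 ± 0.16 below islet tumours (1.92-fold, limma adjusted p = 6.78e-05). Scd2 was called in no other comparison of the main fit. With median centring it was called lower in islet tumours than in normal islets (-0.46, limma adjusted p = 0.0282), as it was with array weights (-0.56, 0.00569). Array weights also gave a call lower in hyperplastic than in normal islets (-0.55, limma adjusted p = 0.0203).

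Markers of other cell types moved with several of these results. In metastases all 17 of 17 measured hepatocyte genes were called higher than in MLP and than in islet tumours, and the hepatocyte marker mean was 9.62 to 10.18, against 6.12 to 6.41 in MLP and 6.02 to 6.24 in islet tumours. Albumin (Alb) measured 13.16, 13.08 and 12.89 in the metastases. The cytochrome Cyp2e1, a defining marker of hepatocytes, measured 10.91, 10.25 and 9.78 there, against 4.84 to 5.48 in the primaries. With the hepatocyte marker mean as a covariate no gene of the 10 was called between metastases and either class of primary. The differences from MLP were then 1.91 for Scd1, -1.21 for Scd2, 0.72 for Sqle and 0.54 for Hmgcs1, with limma adjusted p of 0.655, 0.615, 0.732 and 0.802. The hepatocyte mean did not overlap between metastases and primaries, so liver tissue and tumour cells cannot be told apart as the source of the metastasis results. The share of all genes called with this covariate, or with those below, was not counted. The loss of calls can therefore not be read as particular to the 10 genes. Over the 3 metastases, in the order I-9820, I-9821 and I-9822, the hepatocyte mean was 10.18, 9.81 and 9.62. Scd1 was 8.42, 7.96 and 8.05, and Scd2 was 8.86, 8.85 and 9. Sqle was 9.49, 9.61 and 9.75, and Hmgcs1 was 9.14, 9.29 and 9.03. Whether any of them followed the hepatocyte mean over these 3 samples was not tested.

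Acinar markers, from the digestive enzyme cells of the pancreas, were low in metastases, with a mean of 9.57 to 10.41 against 10.25 to 12.33 in MLP and 11.6 to 12.13 in islet tumours. Of the 8 measured, 4 were called lower than in MLP and 8 lower than in islet tumours. With the acinar mean as a covariate Hmgcs1 was not called between metastases and MLP (0.34, limma adjusted p = 0.178), Sqle was not called between metastases and islet tumours (0.36, 0.113), and Elovl6 was not called between islet tumours and normal islets (-0.66, 0.0584). The same covariate brought 2 further calls, Scd1 lower in islet tumours than in normal islets (-0.83, limma adjusted p = 0.0165) and Acaca higher in islet tumours than in angiogenic islets (0.28, 0.029).

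Angiogenic islets also held liver and stromal transcripts. Their hepatocyte mean was 6.36 in AngiogenicI-93, 7.6 in Angiogenic2006 and 8.26 in Angiogenic2007, and 13 of 17 hepatocyte genes were called lower in islet tumours than in angiogenic islets. Scd1 was 8.48 in AngiogenicI-93, where the hepatocyte mean lay within the 6.35 to 6.67 of the normal and hyperplastic islets. With AngiogenicI-93 as the only angiogenic sample, its spread taken from the other groups, Scd1 was 2.13 lower (limma adjusted p = 0.00279) and Insig1 0.75 lower (0.0146) in islet tumours, and Hmgcs1 was not called (-0.51, 0.148). Fibroblast markers were high in all 3 angiogenic samples, from 10.01 to 10.25, against 7.44 to 9.22 in the other 19, and all 7 of 7 were called higher than in hyperplastic islets and lower in islet tumours. With the fibroblast mean as a covariate no gene of the 10 was called between islet tumours and angiogenic islets, the values being -1.34 for Scd1 (limma adjusted p = 0.394), -0.54 for Insig1 (0.426) and 0.07 for Hmgcs1 (0.949). Since the fibroblast mean did not overlap between angiogenic and other samples, stromal content and the angiogenic label cannot be told apart by this covariate. The lymphocyte mean was 9.03, 8.53 and 6.49 in the same 3 angiogenic samples, and 6.12 to 8.41 elsewhere. Macrophage markers were called higher in angiogenic than in hyperplastic islets for 7 of 8 genes (means of 8.06 to 8.64 against 7.41 to 7.61), higher in islet tumours than in normal islets for 5 of 8 (7.81 to 8.49 against 7.2 to 7.38), and lower in metastases than in MLP for 4 of 8 (7.48 to 7.66 against 7.84 to 8.51). Endothelial markers were called higher in angiogenic than in hyperplastic islets for 5 of 8 genes (8.9 to 9.32 against 8.25 to 8.41), and lower in islet tumours than in angiogenic islets for 5 of 8. They were called lower in MLP than in islet tumours for 6 of 8, with means of 7.51 to 7.91 against 8.29 to 8.65. The part of lymphocytes, macrophages and endothelium in these results was not tested.

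Scd1 and Elovl6 are also strongly expressed in fat, so adipocyte markers were read beside them. The mean of the 9 measured adipocyte genes stayed between 6.4 and 6.74 in all 22 samples. With this mean as a covariate 2 calls were lost. They were Elovl6 between islet tumours and normal islets (-0.62, limma adjusted p = 0.0751) and Insig1 between MLP and islet tumours (0.21, 0.0952). Adiponectin (Adipoq), a hormone secreted by fat cells, measured 4.94 to 5.38 over the 22 samples. Perilipin 1 (Plin1), which coats their lipid droplets, had group means from 6.84 to 7.09. Of the 9 genes, 3 were called in at least 1 of the 7 comparisons, Fabp4, Pparg and Lipe. Fabp4, which macrophages and endothelium express too, measured 8.58 in AngiogenicI-93, where Scd1 was high, and at most 7.53 elsewhere. It was 1.24 ± 0.19 lower in islet tumours than in angiogenic islets (limma adjusted p = 0.000285) and 0.65 ± 0.19 higher in metastases than in MLP (0.0235). Pparg, the nuclear receptor that drives fat cell formation, was 0.63 ± 0.10 lower in MLP (3.1e-05) and 0.67 ± 0.11 lower in metastases (5.82e-05) than in islet tumours. Elovl6 was higher in both MLP and metastases than in islet tumours. Hormone-sensitive lipase (Lipe) was 0.37 ± 0.09 lower in metastases than in islet tumours (0.0018).

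Beta cell markers were lower in the tumours. Their mean over 10 genes was 11.63 ± 0.03 (SD, n = 3) in normal islets, 11.4 ± 0.05 (n = 3) in hyperplastic, 11.19 ± 0.14 (n = 3) in angiogenic islets and 10.74 ± 0.18 (n = 5) in islet tumours. It was 8.94 ± 0.27 (n = 5) in MLP and 9.39 ± 0.36 (n = 3) in metastases, and 9 of 10 were called lower in MLP than in islet tumours, the comparison in which Insig1 was higher. Of the 10, 5 were called lower in islet tumours than in normal islets, and none between hyperplastic and normal or between angiogenic and hyperplastic islets. The insulin gene Ins2 had group means of 10.99, 11.08, 11.18, 11.01, 10.17 and 10.34 from normal islets to metastases. With the mean of the 10 as a covariate no gene of the 10 was called between MLP and islet tumours, where Srebf1 was -0.58 (limma adjusted p = 0.29), Elovl6 1.72 (0.287) and Sqle 0.48 (0.542), the last with its sign turned. From normal islets to islet tumours 2 of the 10 were still called with it, Insig1 and Srebf1. The beta cell mean was 8.62 to 9.28 in MLP, 10.51 to 11.01 in islet tumours and 11.6 to 11.66 in normal islets, without overlap. In these comparisons, here and below, beta cell content and tissue class therefore cannot be told apart by this covariate. The part of beta cell content was not tested beyond this.

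**Figure D3:**
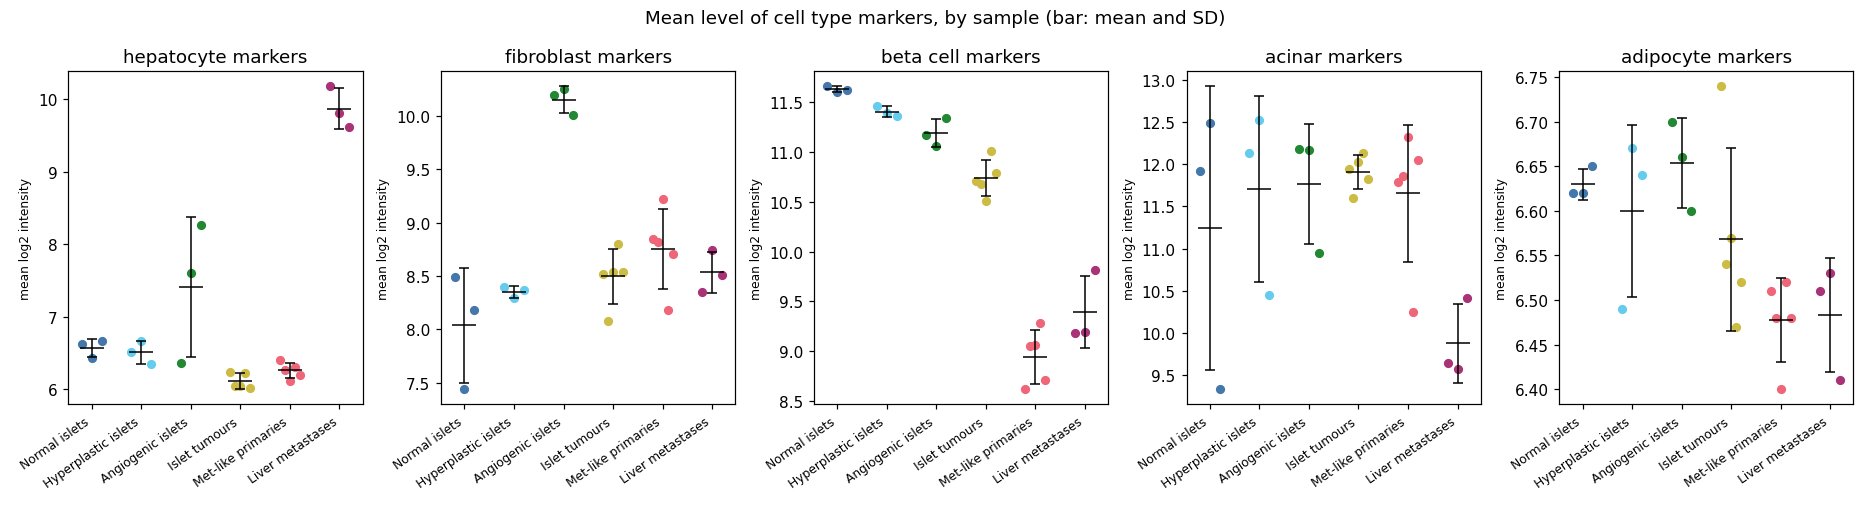
Mean log2 intensity (vertical axis, its own range in each panel) of the hepatocyte (17 genes), fibroblast (7), beta cell (10), acinar (8) and adipocyte (9) markers in the 22 samples, grouped by tissue label. Points are samples and bars give the mean and SD of a group: hepatocyte markers are near 9.87 in metastases, fibroblast markers near 10.15 in angiogenic islets, and the adipocyte panel spans less than the others.

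Other genes of the sterol branch, 18 measured of 23 listed, followed the sterol genes above in part. From normal islets to islet tumours 6 were called lower and 1 higher, where 16.1% and 13% of all genes were, with a median of -0.13 over the 18. Msmo1, a sterol methyl oxidase, fell by 1.39 ± 0.09 (2.61-fold, limma adjusted p = 3.05e-10), squalene synthase (Fdft1) fell by 0.77 ± 0.15 (1.71-fold, 0.000377; -0.30, 0.449 with the beta cell mean as a covariate) and the sterol reductase Tm7sf2 fell by 0.64 ± 0.08 (1.56-fold, 1.46e-06). Lbr, a lamin B receptor that carries the same reductase activity as Tm7sf2, rose by 0.98 ± 0.15 (1.97-fold, 4.49e-05). Most of the Lbr rise was already present in hyperplastic islets, which were 0.91 ± 0.17 above normal islets (1.88-fold, limma adjusted p = 0.00124). In hyperplastic islets Msmo1 was 0.67 ± 0.10 lower (7.09e-05) and Tm7sf2 0.37 ± 0.09 lower (0.00777), the latter not called without Hyperplastic2007 (0.0638).

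Metastases had the most sterol genes called in one direction. Against MLP 8 of the 18 were higher and none lower, beside 7.8% and 7.87% of all genes, with a median of 0.23. Against islet tumours 10 were higher and 2 lower, beside 17.3% and 19.3% of all genes, with a median of 0.44. Against MLP, the sterol carrier Stard4 rose by 1.14 ± 0.12 (2.21-fold, limma adjusted p = 4.51e-07), the sterol ketoreductase Hsd17b7 rose by 0.83 ± 0.11 (1.78-fold, 1.28e-05) and Msmo1 rose by 0.64 ± 0.09 (1.56-fold, 2.23e-05). Isopentenyl diphosphate isomerase (Idi1) had group means of 8.4 in normal islets, 7.97 in islet tumours, 8.47 in MLP and 9.06 in metastases, the same dip as Hmgcs1. Between MLP and islet tumours 5 were higher and 2 lower, beside 12.3% and 14.2% of all genes, among them Idi1, higher by 0.50 ± 0.11 (limma adjusted p = 0.00106), and the reductase Dhcr7, higher by 0.46 ± 0.11 (0.00249). Tm7sf2 was 0.40 ± 0.07 lower (7.63e-05) and mevalonate kinase (Mvk) 0.30 ± 0.07 lower (0.00211). None of these 4 was called with the beta cell mean as a covariate, the values being 0.75 for Idi1 (limma adjusted p = 0.364), 1.33 for Dhcr7 (0.0636), -0.27 for Tm7sf2 (0.63) and -0.22 for Mvk (0.713). With the hepatocyte mean as a covariate the differences of metastases from MLP were 1.46 for Stard4, 1.15 for Hsd17b7 and 0.80 for Msmo1, and none was called (limma adjusted p = 0.281, 0.38 and 0.52).

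**Figure D4:**
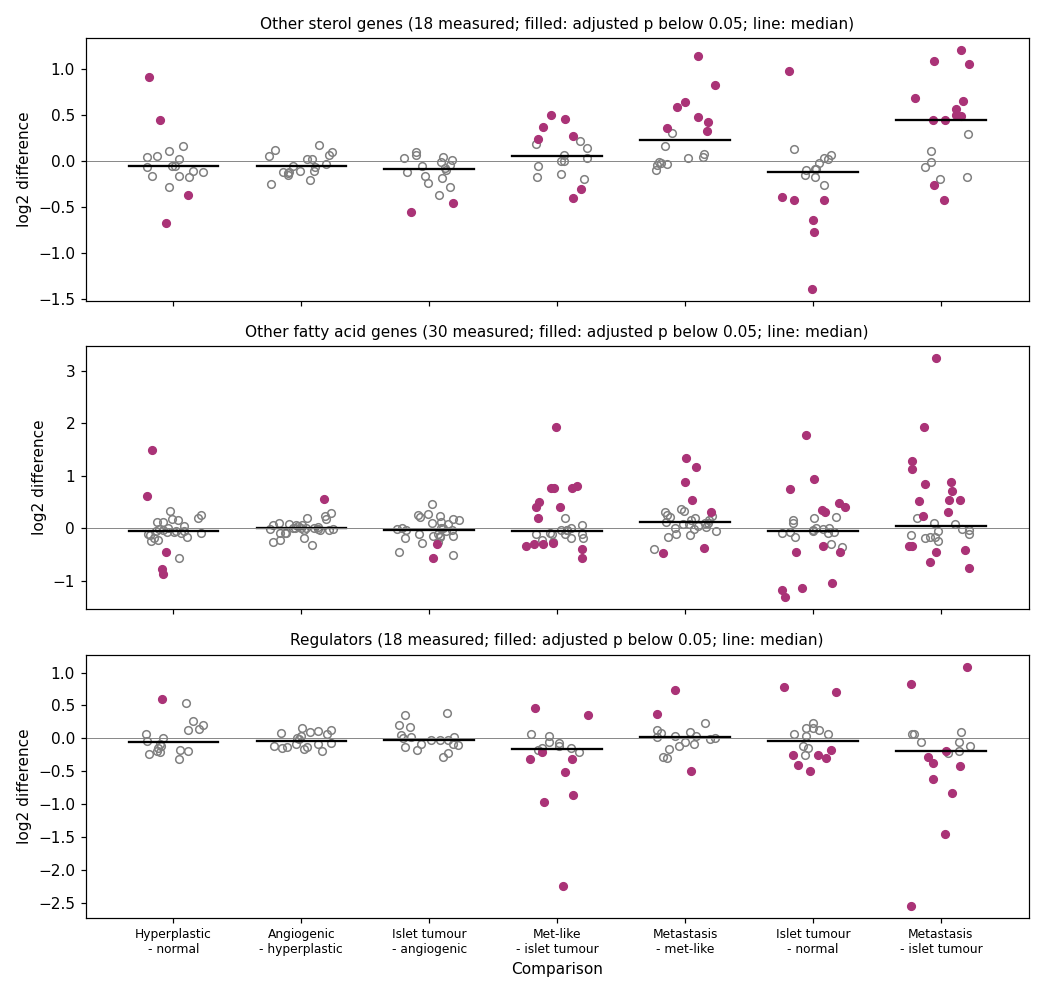
Log2 difference (vertical axis) of each measured gene of 3 other lists in the 7 comparisons (horizontal axis): 18 other sterol genes, 30 other fatty acid genes and 18 regulators. Filled points passed limma's adjusted p of 0.05, open points did not, and a black line marks the median of the list: the sterol median is highest for metastases against islet tumours, at 0.44, and the lowest points of the regulators are Mlxipl at -2.25 and -2.54.

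Of the other fatty acid genes, 30 measured of 32 listed, 7 were called higher and 7 lower from normal islets to islet tumours, where 13% and 16.1% of all genes were, with a median of -0.05. The desaturases that make polyunsaturated fatty acids rose, Fads2 by 1.78 ± 0.15 (3.43-fold, limma adjusted p = 1.42e-08) and Fads1 by 0.94 ± 0.10 (1.91-fold, 3.89e-07), of which 1.49 ± 0.16 and 0.62 ± 0.11 were present in hyperplastic islets. The polyunsaturated elongase Elovl5 fell by 1.05 ± 0.12 (2.07-fold, 6.65e-07), the elongation reductase Hsd17b12 fell by 1.31 ± 0.15 (2.48-fold, 8.23e-07) and the citrate carrier Slc25a1, which exports the carbon for acetyl-CoA, fell by 1.18 ± 0.17 (2.26-fold, 1.29e-05). Desaturase and elongase of the same route thus moved in opposite directions in the same samples.

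Between MLP and islet tumours 9 fatty acid genes were higher and 6 lower, where 12.3% and 14.2% of all genes were, with a median of -0.06. Elovl2, which lengthens long polyunsaturated chains and is abundant in liver, rose by 1.92 ± 0.16 in MLP (3.77-fold, limma adjusted p = 1.38e-08), where the hepatocyte marker mean was 6.26 ± 0.11 (SD, n = 5) and Alb ranged from 7.61 to 11.78, against 6.04 to 8.24 in islet tumours. The acyl-CoA synthetases Acsl5 and Acsl4 rose by 0.77 ± 0.09 (1.71-fold, 1.11e-06) and 0.76 ± 0.10 (1.69-fold, 6.41e-06). The acyltransferase Gpam, which starts triglyceride synthesis, fell by 0.56 ± 0.08 (1.48-fold, 6.68e-06), and ATP citrate lyase (Acly), which supplies cytosolic acetyl-CoA, fell by 0.39 ± 0.08 (1.31-fold, 0.000448). With the beta cell mean as a covariate none of these 5 was called, the values being 1.01 for Elovl2 (limma adjusted p = 0.402), 1.12 for Acsl5 (0.118), 1 for Acsl4 (0.213), -0.05 for Gpam (0.946) and -0.59 for Acly (0.315). Against MLP, metastases had 5 higher and 2 lower, where 7.8% and 7.87% of all genes were, with a median of 0.12. Elovl2 rose by a further 1.33 ± 0.19 (2.51-fold, limma adjusted p = 4.07e-05), and Acacb, the carboxylase isoform at mitochondria, rose by 1.16 ± 0.16 (2.23-fold, 1.96e-05). Group means of Elovl2 were 8.36 in normal islets, 7.22 in islet tumours, 9.13 in MLP and 10.46 in metastases. Against islet tumours, 12 were higher and 6 lower in metastases, beside 17.3% and 19.3% of all genes. With the hepatocyte mean as a covariate Elovl2 was 0.82 and Acacb 0.97 higher in metastases than in MLP, neither of them called (limma adjusted p = 0.805 and 0.695).

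The regulators of the 2 arms, 18 measured of 20 listed, had 7 called lower and 2 higher in MLP than in islet tumours, where 14.2% and 12.3% of all genes were, with a median of -0.16. The 2 of 18 called higher is near the share over all genes. Mlxipl encodes ChREBP, the glucose-responsive activator of lipogenic genes in liver and beta cells. It fell by 2.25 ± 0.15 in MLP (4.76-fold, limma adjusted p = 3.61e-10), after group means of 10.36 in normal islets and 11.14 in islet tumours. The sterol exporters Abcg1 and Abca1, targets of the LXR receptors, fell by 0.96 ± 0.13 (1.94-fold, 6.67e-06) and 0.86 ± 0.11 (1.81-fold, 3.67e-06). Insig2, the second INSIG gene, was 0.35 ± 0.09 higher in MLP (1.28-fold, 0.0064) and 0.74 ± 0.11 higher again in metastases than in MLP (1.67-fold, 4.9e-05), a comparison in which Insig1 was not called. Group means of Insig2 were 9.78, 9.63, 9.66, 9.53, 9.88 and 10.62 from normal islets to metastases in the order of the tissue labels above. Scap, whose protein carries the SREBPs, was 0.18 ± 0.06 lower in islet tumours than in normal islets (1.14-fold, limma adjusted p = 0.0348). In the earlier steps 1 regulator was called, Mylip, an LXR target that directs the LDL receptor to degradation, which rose by 0.60 ± 0.16 in hyperplastic islets (1.52-fold, limma adjusted p = 0.0196). The call held without NormalI-93 and was lost without any of the other 5 samples compared (0.0519 to 0.0982). With the beta cell mean as a covariate the differences between MLP and islet tumours were -1.16 for Mlxipl (limma adjusted p = 0.267), -0.82 for Abcg1 (0.414), -0.76 for Abca1 (0.378) and 1 for Insig2 (0.139), none of them called. With the hepatocyte mean as a covariate Insig2 was 0.81 higher in metastases than in MLP and was not called (limma adjusted p = 0.618).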

How the data were processed

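RNA of 22 tissue samples was hybridised to Affymetrix mouse whole-transcript arrays after TRIzol purification and biotin labelling, per the labels' protocols. The deposited values, which the authors made with aroma.affymetrix per the series text, lie in the range of log2 intensities. No source used here gives the background correction, normalization or summarization. Of 35511 probe sets 21789 had 1 symbol in the platform annotation, which left 19938 genes with no filter. One limma 3.58.1 model (R 4.3.3) with a mean for each group covered the 22 arrays and 7 two-sided contrasts, and was first tested on simulated data. Benjamini-Hochberg adjustment ran over all genes of a comparison. Errors of differences are SEs, errors of levels are SDs, and precision is limited by the number of arrays.

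The 10 genes, the lists and the markers were chosen with earlier results of these data known. Named genes are the 10, up to 3 called genes per list, comparison and direction by adjusted p, the 5 genes most correlated with Fasn and with Sqle, and defining markers. Fabp4, Scap and the group means of Idi1, Elovl2, Insig2 and Anks4b were picked after their values were seen. Alternatives were a block for the title code, only the compared samples, quantile normalization, median centring, a dim gene filter, 2 other uses of probe sets, array weights, a trended variance, a 1 log2 minimum, hepatocyte, acinar and adipocyte means as covariates, and leaving out each sample. The fibroblast and beta cell covariates and the fit with 1 angiogenic sample were added after seeing the data.

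Islet groups share title codes (2006, 2007 and I-93). Deviations from group means were correlated across genes. They gave 0.197 to 0.448 for normal with hyperplastic and 0.353 to 0.479 for hyperplastic with angiogenic islets of the same code. For other codes they gave -0.368 to -0.058 and -0.393 to -0.062, so islet samples of the same code resemble each other and may be paired. The main model did not use the codes and treats these samples as unpaired. The codes entered only the alternative with a block.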

Additional observations from a re-analysis of the deposited data

Results flagged for a closer look

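Scd2 in the metastasis-like primary tumours had 1 sample far from the others. III-8016 measured 9.97, whereas the other four lay between 9.58 and 9.66. Of the 20 sets of 5 tumours read for the 10 genes this was the only one with so wide a gap, and chance gives about 1 in 20 such groups. The same sample had the lowest acinar marker mean of its group, 10.25 against 11.79 to 12.33, and its part in the value was not tested. The Scd2 difference from MLP to metastases was called in every fit that left out 1 sample.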

How the results depend on the processing

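Of the 70 differences of the 10 genes, 27 were called. Median centring and the filter on dim genes lost none of these calls, quantile normalization and the trended variance lost 1 each, and only the compared samples lost 5 (Acaca and Elovl6 for islet tumours against normal islets, Hmgcs1 for islet tumours against angiogenic islets, and Sqle and Insig1 for MLP against islet tumours). Calls were also gained, 4 with median centring, 7 with array weights, 2 with quantile normalization and 1 with only the compared samples. Those of median centring were Fasn and Acaca for islet tumours against angiogenic islets, and Scd1 and Scd2 for islet tumours against normal islets. The number of genes called moved by over 1.5 times as follows. A minimum change of 1 log2 left 0 for hyperplastic against normal islets, 1 for islet tumours against angiogenic islets, 0 for MLP against islet tumours, 1 for metastases against MLP, 1 for islet tumours against normal islets and 2 for metastases against islet tumours. Array weights gave 3 for hyperplastic against normal, 1 for angiogenic against hyperplastic and 5 for islet tumours against angiogenic islets, and quantile normalization and median centring also gave 5 there, with Fasn and Acaca called higher. Only the compared samples left 3 for MLP against islet tumours. The hepatocyte covariate left 0 in both metastasis comparisons. The fibroblast covariate left 0 for islet tumours against angiogenic islets, where Hmgcs1 became 0.07. The beta cell covariate left 0 for MLP against islet tumours, where Sqle became 0.48, 2 for islet tumours against normal islets and 1 for metastases against islet tumours. Shares of all genes called with these covariates were not counted. Leaving out 1 sample gave 1 to 2 for hyperplastic against normal, 0 to 1 for angiogenic against hyperplastic, 2 to 4 for islet tumours against angiogenic, 3 to 5 for MLP against islet tumours, 3 to 5 for metastases against MLP, 6 to 9 for islet tumours against normal and 5 to 7 for metastases against islet tumours.

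The replicate block of the title code left 5 of 8 for islet tumours against normal islets, without Fasn (0.23, limma adjusted p = 0.256), Acaca (0.19, 0.289) and Elovl6 (-0.52, 0.34). It changed no other call of the 10 genes. Normal with angiogenic samples of the same code correlated at 0.057 to 0.144, against -0.09 to 0.039 for other codes. Tumours share only the prefix I with islets, and whether the codes pair tumours with islets was not tested.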
